A study of Mus musculus with 2 samples.

Results

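CD4 T cells, regulatory T cells among them, were described in 2 single-cell RNA libraries of mouse pancreatic tumors. They were chosen by transcript counts alone. A barcode had to hold at least 500 unique molecular identifiers (UMIs, each 1 captured transcript), 200 to 5000 detected genes and at most 8% mitochondrial UMIs. It then needed at least 2 UMIs summed over Cd3d, Cd3e, Cd3g and Trac, 0 UMIs of Cd8a and Cd8b1, and at least 1 UMI summed over Cd4, Foxp3 and Cd40lg. Barcodes with a UMI of Il17a, Trdc or Cd163l1, with more than 2 UMIs of C1qa, C1qb and C1qc, or with more than 1 of Krt8 and Krt18 were left out. The rule found 143 CD4 T cells among 20428 kept cells, 56 of 8739 in the FLOX library and 87 of 11689 in the library labelled MCT1-KO. The CD8 T cells used for comparison passed the same rule with at least 1 UMI of Cd8a and Cd8b1 and 0 of Cd4, Foxp3 and Cd40lg, and numbered 251 and 183.

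The study asked how the lactate transporter MCT1, encoded by Slc16a1, in pancreatic stellate cells bears on the tumor. Mice carried floxed MCT1 alleles and Col1a2-CreERT2, a recombinase that tamoxifen switches on in collagen-producing cells, and received tamoxifen or its corn oil vehicle before KPC cells, a mouse pancreatic cancer line, were injected into the pancreas. The labels give a genotype of FLOX for one library and MCT1-KO for the other, and do not give the age, the agent received or the number of animals behind a library. With 1 library per genotype, genotype, animal and library preparation cannot be told apart, and no difference between libraries was tested. Intervals below are exact 95% intervals and cover counting error only.

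CD4 T cells recognise antigen on MHC class II molecules and direct other immune cells through cytokines and surface ligands such as CD40 ligand. Regulatory T cells are a CD4 lineage set up by the transcription factor Foxp3. They restrain other T cells, in part through the receptor CTLA-4 and through high use of interleukin-2, whose receptor alpha chain is encoded by Il2ra, and they are frequent in solid tumors, pancreatic tumors included.

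The libraries held 177334432 and 151118092 UMIs, and a CD4 T cell held a median of 3734 UMIs in FLOX and 2382 in MCT1-KO. The targeted transcript was not seen to be lower in the library labelled MCT1-KO. Slc16a1 stood at 28.0 CPM (UMIs scaled to a common total per class and library) in 110 collagen-high cells without Ptprc of the FLOX library, from 31 UMIs. In 154 such cells of the library labelled MCT1-KO it stood at 33.7 CPM, from 46 UMIs. The ratio was 1.20 (0.746 to 1.96), an interval that includes a fall. The paper reports lower MCT1 in knockout stellate cells in its single-cell data, and less MCT1 RNA and protein in primary stellate cells. Collagen-high cells as chosen here need not match the paper's stellate cells. Near-empty barcodes held 21.4 and 21.0 CPM, which lies inside the interval of the collagen-high cells in FLOX (19.0 to 39.8) and below it in MCT1-KO (24.6 to 44.9). The part of free RNA in these values was not tested. CD4 T cells held 3 and 4 Slc16a1 UMIs. Free RNA differed between the libraries. The 10 acinar genes summed to 345 CPM in near-empty FLOX barcodes (10 to 100 UMIs) and to 18300 CPM in those of MCT1-KO, and 59 barcode sequences occurred in both libraries among kept cells, none of them a CD4 T cell in both.

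The values that chose the cells were sparse. Of the CD4 T cells, 45 of 56 and 62 of 87 held a Cd4 UMI, 19 and 29 held Cd40lg, which encodes CD40 ligand, and 6 and 12 held Foxp3. Foxp3 alone let in 4 and 10 cells and Cd40lg alone 6 and 15. At the edge of the rule, 10 FLOX and 42 MCT1-KO cells held a single UMI of the 3 genes, 4 and 14 held only 2 CD3 UMIs, and a further 5 and 5 cells stood just outside with 1. At least 1 UMI of the 3 genes was also seen in 0.680% and 0.598% of keratin-high cells (median 19175 and 17559 UMIs), in 1.03% and 0.928% of C1q-high cells (median 6164 and 5076 UMIs), and in 7 of 258 and 3 of 186 T cells with a CD8 UMI. A further 46 and 72 T cells held neither CD4-rule nor CD8 UMIs and belong to neither class here.

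The label was checked against markers that the rule did not use. Tnfrsf4, the costimulatory receptor OX40, was detected in 33 of 56 and 63 of 87 CD4 T cells, against 16.3% and 29.0% of CD8 T cells and 1.44% and 1.15% of keratin-high cells. Cd5, a brake on T cell receptor signals, was detected in 37 and 36 CD4 T cells, against 27.5% and 18.0% of CD8 T cells. Zbtb7b, the transcription factor that commits thymocytes to the CD4 lineage, gave only 1 and 2 UMIs and so carried no weight either way. Nkg7, a granule protein typical of CD8 T and NK cells, was present in 40 of 56 (71.4%) and 53 of 87 (60.9%) CD4 T cells, against 5.86% and 1.45% of keratin-high cells. The NK marker Ncr1 and the B cell markers Ms4a1 and Cd79a were at 0 UMIs in the CD4 T cells of both libraries. The 5 NK genes together gave 35 and 18 UMIs in 27 of 56 and 14 of 87 cells, and the 5 B cell genes 8 and 5 UMIs in 5 and 4 cells.

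CD4 T cells were a smaller part of the T cells in FLOX than in MCT1-KO. They made up 56 of 307 CD4 and CD8 T cells in FLOX, 18.2% (14.1 to 23.0), and 87 of 270 in MCT1-KO, 32.2% (26.7 to 38.2). Of all kept cells, CD4 T cells were 0.641% (0.484 to 0.831) in FLOX and 0.744% (0.597 to 0.917) in MCT1-KO, intervals that overlapped. CD8 T cells were 2.87% (2.53 to 3.24) and 1.57% (1.35 to 1.81) of kept cells, so the CD4 share also follows the number of CD8 T cells. With each cell thinned to 1000 UMIs and classed anew, the shares were 13.6% and 28.2%, without 1 and 2 CD4 and 4 and 7 CD8 T cells that were shallower. The gap rested in part on cells with 1 UMI. When at least 2 UMIs of Cd4, Foxp3 and Cd40lg were required, a setting chosen after the data were seen, the shares were 15.5% (11.6 to 20.1) and 19.7% (14.8 to 25.5) and their intervals overlapped. With CD4 T cells holding a Nkg7 UMI left out and all CD8 T cells kept, also a setting chosen after the data were seen, the shares were 5.99% and 15.7%.

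The genes farthest above CD8 T cells were Izumo1r, Tnfsf8, Maf and Itgb8. Levels were summed over the cells of a class, and a gene was called where its CPM ratio reached 2 in the same direction in both libraries, among 5250 genes with at least 50 UMIs. By this rule 44 genes were higher in CD4 T cells (0.838% of those ranked) and 32 were lower (0.61%). The genes of the selection rule were left out of these counts. Gm44174, a non-coding gene that lies between Cd8b1 and Cd8a, stayed among the 32 called lower. The bearing of the rule on it was not tested. Sums of other cells' RNA differed between the classes in FLOX, where 5 fibroblast genes summed to 80.8 CPM in CD4 and 1185 CPM in CD8 T cells and 4 neutrophil genes to 109 and 1667 CPM. The median cell of both classes was at 0 for either list, and single CD8 T cells reached 53990 and 162700 CPM. A fibroblast UMI was held by 17 of 56 CD4 and 74 of 251 CD8 T cells, and a neutrophil UMI by 21 of 56 and 58 of 251. In MCT1-KO the sums were 75.7 and 136 CPM and 257 and 265 CPM. Their part in the genes called lower was not tested.

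Izumo1r, which encodes the folate receptor family member FR4 found on regulatory and anergic CD4 T cells, led the list. It stood at 109 CPM in CD4 and 12.2 CPM in CD8 T cells of FLOX, and at 156 and 7.33 CPM in those of MCT1-KO, ratios of 8.96, with a lower bound of 4.30, and 21.2 (8.32 to 69.2). It was found in 14 of 56 and 18 of 87 CD4 T cells and in 10 of 251 and 3 of 183 CD8 T cells. Maf, a transcription factor of interleukin-10 and interleukin-21 producing helper cells, stood at 210 CPM against 19.9 CPM in FLOX and at 227 against 27.9 CPM in MCT1-KO. Its ratios were 10.5 (6.06 to 19.1) and 8.15 (4.75 to 14.6), from 25 and 32 CD4 T cells. In both libraries the intervals of these 2 genes lay well above 1.

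Tnfrsf4 and Cd5 were also among the leading 10. The Tnfrsf4 level was 420 CPM in CD4 and 84.1 CPM in CD8 T cells of FLOX, and 761 and 197 CPM in MCT1-KO, ratios of 4.99 (3.68 to 6.802) and 3.87 (3.08 to 4.88). Thinned to 1000 UMIs, 27.3% and 45.9% of CD4 T cells kept a Tnfrsf4 UMI. Cd5 stood at 351 against 104 CPM in FLOX and at 252 against 58.7 CPM in MCT1-KO, ratios of 3.38 and 4.30. Tnfsf8, the ligand of CD30, reached ratios of 8.55 and 13.5, but 49 of its 68 FLOX UMIs came from 1 cell, whereas 26 MCT1-KO cells shared 66 UMIs. Itgb8, an integrin chain that activates latent TGF-beta, was higher 16.4-fold (6.64 to 48.6) and 6.21-fold (2.20 to 19.9). Tbc1d4, Tspan32, Neb and Ass1 completed the leading 10, with ratios from 3.48 to 4.92 in either library.

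**Figure D1:**
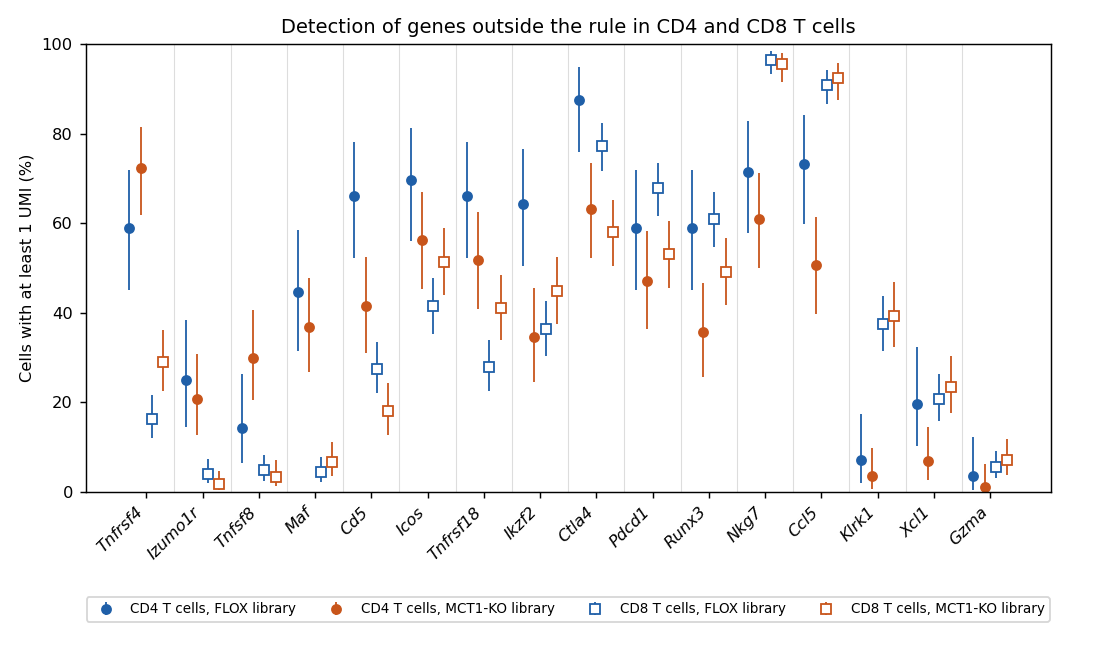
Share of cells (%) with at least 1 UMI for 16 genes outside the selection rule, in CD4 (filled circles) and CD8 T cells (open squares) of the FLOX (blue) and MCT1-KO (orange) libraries, with exact 95% intervals. Tnfrsf4, Izumo1r, Maf and Cd5 sit higher in CD4 T cells of both libraries and Klrk1 lower, while Nkg7 is present in 71.4% and 60.9% of CD4 T cells. Unthinned shares also follow depth, which differs between the classes.

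Klrk1 and Ly6c2 led the opposite direction. Klrk1, which encodes the activating receptor NKG2D, stood at 24.2 CPM in CD4 and 218 CPM in CD8 T cells of FLOX, and at 21.0 and 198 CPM in MCT1-KO, 9.0-fold (4.06 to 24.8) and 9.42-fold (3.94 to 29.5) lower in CD4. Ly6c2, a surface antigen of memory CD8 T cells, gave 6 UMIs and 0 UMIs in CD4 T cells against 171 and 98 in CD8, 7.81-fold lower in FLOX and at least 11.4-fold lower in MCT1-KO against a floor of 3 UMIs. Xcl1, a chemokine that attracts cross-presenting dendritic cells, stood at 117 against 407 CPM and at 96.7 against 342 CPM, although 16 of its 23 MCT1-KO UMIs lay in 1 cell. Gzma, a granule protease, gave 3 UMIs and 1 UMI in CD4 T cells, 15.6-fold (5.26 to 76.5) and 19.5-fold (3.36 to 785) below CD8, where it came from only 14 and 13 cells. With 0 UMIs of other cells' genes, which left 12 FLOX CD4 T cells, its log2 ratio in FLOX was 1.59, the opposite direction. Retnlg, a neutrophil gene among the leading 10, was at 0 UMIs in CD4 T cells and gave 262 UMIs from 6 FLOX and 32 UMIs from 3 MCT1-KO CD8 T cells.

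Of the 17 cytotoxic genes, all ranked, 0 were called higher and 5 lower in CD4 T cells (Gzma, Gzmf, Xcl1, Klrk1 and Klrc1). Their median log2 ratio was -0.97 in FLOX and -1.09 in MCT1-KO, against 0.09 and 0.05 over all ranked genes. The more abundant members were still present. Nkg7 stood at 2253 CPM in CD4 T cells of FLOX and 1139 CPM in those of MCT1-KO, 0.785 and 0.641 times the CD8 level. Ccl5, a chemokine of effector T cells, stood at 3275 and 1934 CPM, 0.531 and 0.452 times the CD8 level. Gzmf, another granzyme, was seen in 1 CD4 T cell only, which held all 49 UMIs.

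**Figure D2:**
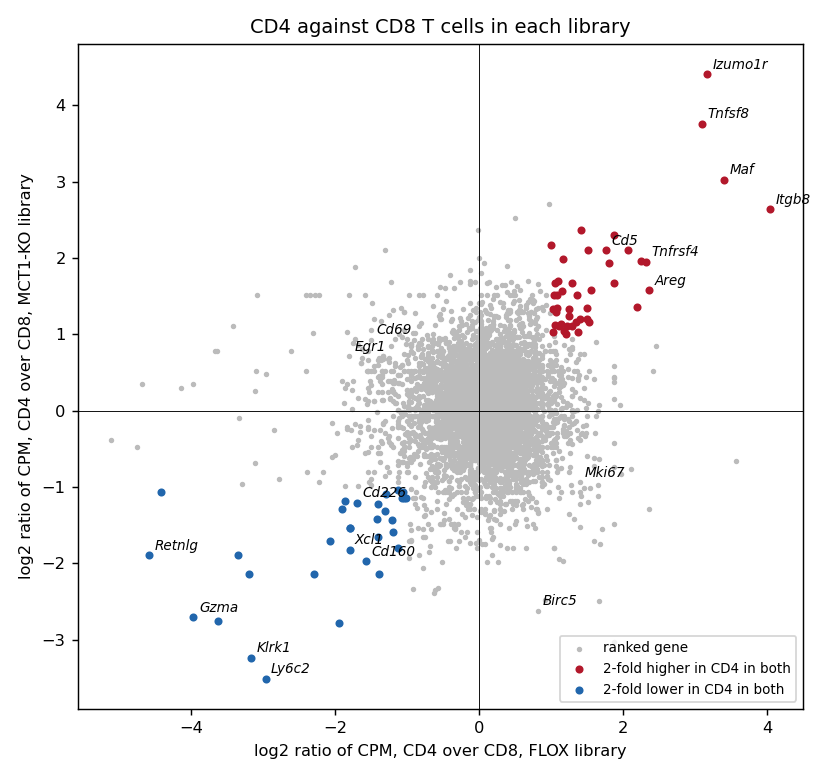
log2 ratio of CPM, CD4 over CD8 T cells, in the FLOX library (x axis) against the MCT1-KO library (y axis) for the 5250 ranked genes outside the selection rule, counts under 3 UMIs drawn at 3. The 44 genes 2-fold higher in CD4 T cells of both libraries are red, with Izumo1r, Tnfsf8, Maf and Itgb8 farthest out, and the 32 genes 2-fold lower are blue.

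The regulatory T cell list held 25 genes, of which 17 could be ranked. Izumo1r, Tnfrsf4, Tnfrsf18 and Areg were called higher in CD4 T cells and 0 were called lower, with a median log2 ratio of 0.71 and 0.60. The rule admits cells with Foxp3 to the CD4 class and bars them from the CD8 class, so this comparison is partly set by the rule. Tnfrsf18, the costimulatory receptor GITR, stood at 368 against 143 CPM and at 484 against 238 CPM. Areg, a growth factor of tissue-repairing regulatory T cells, had ratios of 5.13 (3.39 to 7.80) and 2.98 (1.67 to 5.31), from 11 and 14 CD4 T cells. Its FLOX UMIs were concentrated in few cells. A single cell held 12 of 18 UMIs among cells with Foxp3, all 11 among those with Il2ra but no Foxp3, and 12 of 30 among the rest. Ctla4 stood at 933 CPM in both libraries, 1.33 and 2.42 times the CD8 level, with a log2 ratio of -0.67 in FLOX when cells had 0 UMIs of other cells' genes. Ikzf2, the transcription factor Helios, was 2.63-fold higher than in CD8 T cells of FLOX, while in MCT1-KO the ratio was 1.12 (0.894 to 1.40). Within the CD4 class, Ikzf2 stood at 2339 and 2041 CPM in cells with Foxp3. In cells with neither Foxp3 nor Il2ra it stood at 551 and 192 CPM. Tnfrsf18 stood at 432 and 995 CPM in cells with Foxp3 and at 318 and 299 CPM in cells with neither gene.

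Of the 7 type 2 helper genes, Il4, Il5, Il13, Il17rb and Ptgdr2 gave 0 UMIs in both libraries, and Gata3, the lineage's transcription factor, stood at 68.7 and 58.9 CPM. The selection rule removed cells with an Il17a UMI, which bears on the type 17 list. Its members Il17f, Il22 and Il1r1 were at 0 UMIs, and the list as a whole gave 56 and 58 UMIs in 31 of 56 and 35 of 87 cells, mostly of Tmem176a and Tmem176b. It stood at 226 and 244 CPM in CD4 T cells, below the 1824 and 1216 CPM of near-empty barcodes. The part of free RNA in these UMIs was not tested. Tbx21, the type 1 factor T-bet, stood at 72.7 and 67.3 CPM and Ifng, the main type 1 cytokine, at 226 and 160 CPM, each from 16 cells in FLOX and from 14 and 16 in MCT1-KO. The follicular helper gene Cxcr5 gave 1 UMI and 0 UMIs, and Il21 gave 0 and 2. All 9 genes of that list together gave 203 and 151 UMIs in 47 of 56 and 57 of 87 cells. They summed to 820 and 635 CPM, against 694 and 493 CPM in CD8 T cells. The median log2 ratio of its 5 ranked members was 1.21 and 0.52, against 0.09 and 0.05 over all ranked genes. Il10, an anti-inflammatory cytokine, gave 13 of 247636 and 15 of 237831 UMIs, in 6 and 9 cells. CD8 T cells, with larger totals, gave 4 of 903425 and 11 of 682029, and Il10 had too few UMIs to be ranked.

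Of 14 ranked costimulation genes, 4 were called higher (Tnfrsf4, Tnfrsf18, Cd5, Tnfsf8) and 1 lower (Cd226, an adhesion receptor of cytotoxic cells). Of 14 T cell receptor signalling genes, Cd247, the zeta chain of the receptor complex, and Trat1, an adaptor, were called higher, while the median log2 ratio of these 14 genes was 0.08 in FLOX and 0.34 in MCT1-KO. Their summed level was 6433 CPM in CD4 and 6846 CPM in CD8 T cells of FLOX, and 6488 and 5522 CPM in those of MCT1-KO. Of 12 ranked lineage factors only Maf was called, and of 10 ranked inhibitory receptors only Cd160, lower. Pdcd1, which encodes PD-1, stood at 372 and 357 CPM in CD4 T cells, 0.699 (0.553 to 0.876) and 1.12 (0.864 to 1.45) times the CD8 level.

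Icos, another costimulatory receptor, was higher in CD4 T cells of both libraries but below the 2-fold mark, at 359 against 220 CPM in FLOX and 479 against 317 CPM in MCT1-KO. Slamf6, a receptor of follicular helper and stem-like T cells, had few UMIs, 15 and 20 in CD4 T cells, and ratios of 3.65 (1.66 to 8.01) and 3.19 (1.60 to 6.39).

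Of 13 ranked lactate and glycolysis genes of 17, 0 were called higher and 0 lower, with median log2 ratios of 0.35 and -0.11. Over all ranked genes 0.838% were called higher and 0.61% lower, so 0 calls in a list this short says little about it. Ldha, the lactate dehydrogenase subunit that favours lactate production, stood at 553 and 442 CPM in CD4 T cells, 1.25 (1.02 to 1.52) and 0.935 (0.743 to 1.17) times the CD8 level. The lactate exporter Slc16a3 gave 5 and 4 UMIs and Slc16a7 gave 0, so lactate transporters could not be compared at this depth. The naive, chemokine receptor, interleukin-2, interferon, cell cycle, immediate-early and heat shock lists also held 0 genes called in either direction, which for lists this short carries as little weight.

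A Foxp3 or Il2ra UMI was seen in 11 of 56 FLOX CD4 T cells, 19.6% (10.2 to 32.4), and in 19 of 87 MCT1-KO cells, 21.8% (13.7 to 32.0). The intervals overlapped over most of their length. Without CD4 T cells with a Nkg7 UMI the shares were 7 of 16 and 11 of 34, 43.8% (19.8 to 70.1) and 32.4% (17.4 to 50.5), and with 0 UMIs of other cells' genes the FLOX share was 1 of 12, 8.33%. After thinning to 1000 UMIs, 5 of 55 and 6 of 85 cells kept one, 9.09% and 7.06%. Il2ra was not limited to CD4 T cells, since 16 of 251 and 27 of 183 CD8 T cells held a UMI, against 9 of 56 and 10 of 87 CD4 T cells. In MCT1-KO the share was no higher in CD4 (11.49%, 5.65 to 20.1) than in CD8 T cells (14.75%, 9.95 to 20.7). Both genes were found together in 4 and 3 cells. Foxp3 and Il2ra chose these cells, and Cd4 and Cd40lg are tied to the choice by the rule, so none of the 4 is compared.

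Among 1527 ranked genes, 23 were 2-fold higher in Foxp3 or Il2ra cells than in other CD4 T cells of both libraries (1.51%) and 22 were lower (1.44%). Other cells' RNA was also compared across the split. The B cell genes gave 6 UMIs against 2 in FLOX and 4 against 1 in MCT1-KO, 129.5 against 9.94 CPM and 66.0 against 5.64 CPM. The macrophage genes summed to 1274 against 969 CPM in FLOX and to 330.0 against 485 CPM in MCT1-KO. Their part in the called genes was not tested. Of the regulatory T cell list, 10 genes could be ranked, 4 were called higher and 0 lower, and 9 of the 10 had ratios above 1 in both libraries, as did 396 of all 1527 ranked genes. Ikzf2 stood at 1835 CPM against 551 CPM in FLOX and at 1320 against 192 CPM in MCT1-KO, ratios of 3.33 (2.48 to 4.45) and 6.88 (4.55 to 10.6). Ctla4 stood at 1900 against 710 CPM and at 1601 against 705 CPM, ratios of 2.67 (2.03 to 3.51) and 2.27 (1.72 to 2.98). Capg, an actin-capping protein, and Areg, from 4 cells in each library, were the other members called. For Areg, 12 of the 18 UMIs in FLOX Foxp3 cells and 6 of the 9 in MCT1-KO Foxp3 cells came from 1 cell in each library. Tnfrsf4, with ratios of 3.32 and 1.98, and Tnfrsf9, the receptor 4-1BB, with 1.98 and 2.89, each missed the 2-fold mark in 1 library.

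Genes outside the list that were called higher included Ddit4, a stress-induced inhibitor of mTOR signalling, with ratios of 4.09 (1.93 to 8.61) and 3.57 (1.35 to 9.76). In FLOX, 9 of its 16 UMIs in Foxp3 cells came from 1 cell. Odc1, the first enzyme of polyamine synthesis, had ratios of 2.96 and 3.40, with 44 of its 115 UMIs in MCT1-KO Foxp3 or Il2ra cells from a single cell.

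Ccl5, Themis and several cytotoxic genes were lower in the same cells. Ccl5 stood at 993 against 3800 CPM in FLOX and at 611 against 2387 CPM in MCT1-KO, 3.83-fold (2.84 to 5.27) and 3.91-fold (2.79 to 5.63) lower. Themis, a signalling protein of conventional T cell development, stood at 173 against 745 CPM and at 182 against 779 CPM, 4.31-fold and 4.29-fold lower. Of 10 ranked cytotoxic genes, Gzmk, Ccl4, Ccl5 and Klrd1 were called lower and 0 higher. Cxcr6, a receptor that holds effector T cells in tissue, gave 3 of 46322 and 2 of 60602 UMIs in Foxp3 or Il2ra cells. The others, with larger totals, gave 89 of 201314 and 28 of 177229. Some directions depended on the cells kept. Without CD4 T cells with a Nkg7 UMI the log2 ratio was 2.28 for Ccl5 in FLOX and 0.08 for Cxcr6 in MCT1-KO, and with 0 UMIs of other cells' genes, which left 1 FLOX cell with Foxp3 or Il2ra, it was 0.83 for Themis and 1.49 for Cxcr6 in FLOX.

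Ctla4 was present in 6 of 6 FLOX and 10 of 12 MCT1-KO Foxp3 cells, Ikzf2 in 6 of 6 and 11 of 12, and Tnfrsf4 in 5 of 6 and 12 of 12. Tcf7, a factor of naive and memory T cells, gave 0 UMIs in all of them, with upper limits of 133 and 94.1 CPM. CD4 T cells with neither gene held 74.5 and 90.3 CPM of Tcf7, below those limits, so the 0 does not set the Foxp3 cells apart. Ccr7, a receptor of recirculating T cells, was present in 3 of 6 and 4 of 12 Foxp3 cells, at 468 and 281 CPM against 9.94 and 50.8 CPM in CD4 T cells with neither gene. Of its 13 and 11 UMIs in Foxp3 cells, 6 and 6 came from 1 cell in each library, and cells with Il2ra but no Foxp3 stood at 594 and 93.4 CPM. The cells with Il2ra but no Foxp3 differed between libraries. In FLOX, 4 of 5 held Ikzf2 (1080 CPM, 659 to 1667), while in MCT1-KO 0 of 7 did, with an upper limit of 172 CPM. Their Nkg7 level was 2861 CPM in FLOX and 1307 CPM in MCT1-KO, against 324 and 612 CPM in Foxp3 cells and 2464 and 1236 CPM in cells with neither gene, and the single cell with Gzmf was 1 of these 7. These groups hold 5 to 12 cells each.

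**Figure D3:**
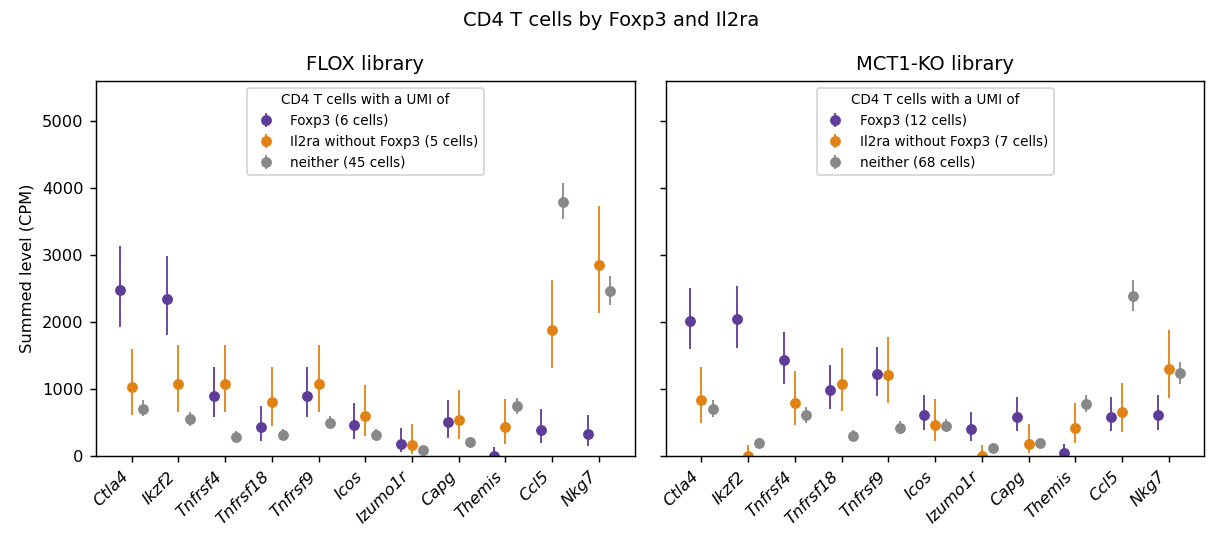
Summed level (CPM) of 11 genes in CD4 T cells with a Foxp3 UMI (purple), with Il2ra but no Foxp3 (orange) and with neither (grey), in the FLOX (left) and MCT1-KO (right) libraries, with exact 95% counting intervals. Foxp3 cells are highest for Ctla4 and Ikzf2 and lowest for Themis, Ccl5 and Nkg7 in FLOX, and Ikzf2 is at 0 in the MCT1-KO cells with Il2ra alone.

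Between the libraries, RNA of other cells was among what differed in CD4 T cells. Of 1527 ranked genes, 55 were 2-fold higher in MCT1-KO (3.6%) and 54 in FLOX (3.54%). The 10 genes with the largest ratio toward MCT1-KO were all digestive enzymes and other acinar genes. Ctrb1, a chymotrypsinogen, stood at 24.2 CPM in FLOX and 1123 CPM in MCT1-KO, 46.3-fold (21.0 to 127) higher, and CD8 T cells showed 12.9-fold. The 10 acinar genes, none at 0, summed to 113 and 3582 CPM and were seen in 15 of 56 and 85 of 87 CD4 T cells. The 8 macrophage genes summed to 1026 and 446 CPM, with a UMI of Lyz2, which encodes lysozyme, in 24 of 56 and 10 of 87 cells, and Apoe and H2-Aa were among the genes higher in FLOX. Their part in the other differences was not tested.

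Heat shock genes were higher in FLOX in CD4 and CD8 T cells alike. Of 10 ranked members 7 were called, and the 12 genes summed to 8294 and 3936 CPM in CD4 T cells, 2.11-fold (1.95 to 2.28) higher, and were 1.87-fold higher in CD8 T cells. Hspa1a, an inducible chaperone, gave 176 UMIs in 24 FLOX cells and 1 UMI in MCT1-KO, a ratio of 169 (30.0 to 6714). Near-empty barcodes held 7783 and 4223 CPM of these genes.

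Il7r, Tnfsf11, Il12rb2 and Stat4 were among the T cell genes higher in MCT1-KO. Il7r, the interleukin-7 receptor, stood at 178 CPM in 17 of 56 FLOX cells and at 576 CPM in 52 of 87 MCT1-KO cells, a ratio of 3.24 (2.29 to 4.66), against 1.54 in CD8 T cells. Tnfsf11, the ligand RANKL, stood at 68.7 and 257 CPM, a ratio of 3.74 (2.15 to 6.82). Of 4 ranked type 1 genes, Il12rb2, Stat4 and Il18r1 were called, with ratios of 4.17 (2.24 to 8.34), 2.21 (1.69 to 2.92) and 2.02 (1.33 to 3.13), while the ratio of Ifng was 0.707 (0.455 to 1.09). Of 8 ranked interleukin-2 and common gamma chain genes, Il7r, Cish and Bcl2 were called, and 5 had ratios above 1, as did 734 of all 1527. Of 9 ranked lactate and glycolysis genes, 1 was called, Bsg, which encodes a chaperone of lactate transporters, at 214 CPM in FLOX and 105 CPM in MCT1-KO, and 0 of the 9 had ratios above 1. All 17 members summed to 4309 and 3267 CPM in CD4 T cells, and to 6022 and 4582 CPM in near-empty barcodes. In CD8 T cells the order was the opposite, at 3253 and 3532 CPM. The part of free RNA in this difference was not tested. Ctla4 and Pdcd1 had ratios of 1.00 (0.829 to 1.21) and 0.962 (0.708 to 1.31). Of 5 ranked inhibitory receptors, 0 were called and 1 had a ratio above 1, and the median log2 ratio was -0.74. The level of all 12 members in CD4 T cells was 2948 CPM in FLOX and 2321 CPM in MCT1-KO, a ratio of 0.787 (0.704 to 0.881). For CD8 T cells this ratio was 0.644 (0.598 to 0.693).

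Ccl4, Ccl3, Gzmb and 4 cell cycle genes were among those higher in FLOX. Ccl4 stood at 1740 and 315 CPM, 5.52-fold (4.31 to 7.15) higher in FLOX, with 109 of 431 UMIs in 1 cell. Ccl3, a related chemokine, stood at 586 and 143 CPM, 4.10-fold (2.80 to 6.14), and the granule protease Gzmb at 424 and 101 CPM, 4.202-fold (2.68 to 6.85). Of 7 ranked cell cycle genes, Mki67, Stmn1, Hmgb2 and Pclaf were called higher in FLOX and 0 in MCT1-KO. Mki67 stood at 218 and 58.9 CPM, from 13 and 8 cells. In CD8 T cells, Ccl4 and Ccl3 were higher in FLOX as well. The 17 cytotoxic genes, Ccl4 among them, summed to 9296 and 4827 CPM in CD4 and to 14300 and 9959 CPM in CD8 T cells. The 14 cell cycle genes summed to 3558 and 1720 CPM in CD4 but to 2103 and 2471 CPM in CD8 T cells.

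A UMI of Mki67 or Top2a was seen in 24 of 56 (42.9%) and 24 of 87 (27.6%) CD4 T cells, but thinned to 1000 UMIs in 10.9% (4.11 to 22.3) and 9.41% (4.15 to 17.7), which overlapped. In the 16 and 34 CD4 T cells without a Nkg7 UMI, a subset defined after the data were seen, the log2 ratio of MCT1-KO over FLOX was 0.19 for Mki67 and 0.19 for Ccl3, the opposite direction, and -0.55 for Ccl4. Il7r kept its direction there, at 0.82.

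**Figure D4:**
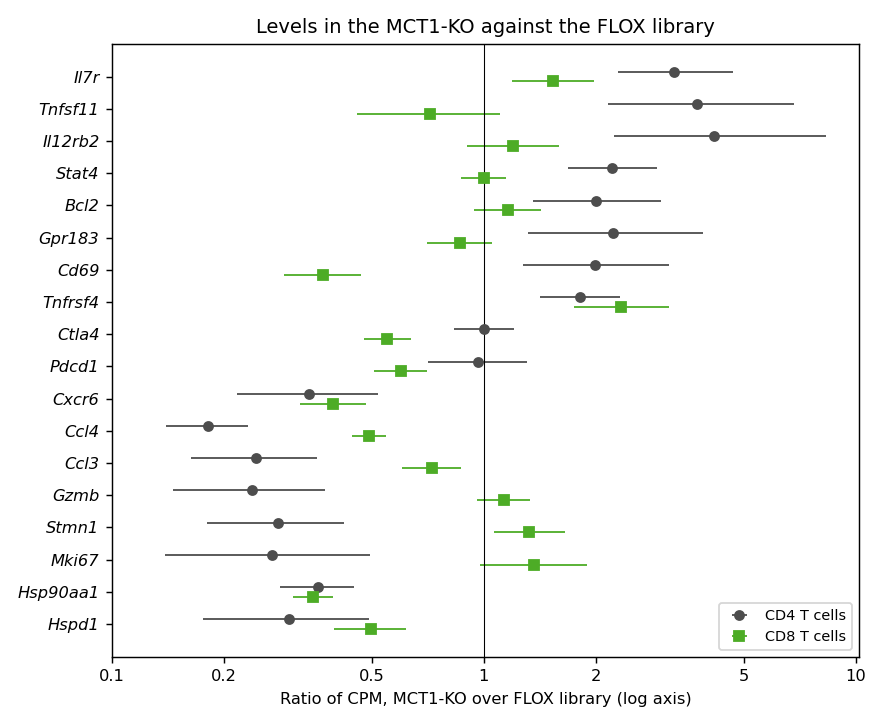
Ratio of CPM, MCT1-KO over FLOX library (log axis), for 18 genes in CD4 (grey circles) and CD8 T cells (green squares), with exact 95% counting intervals and 1 library per genotype. Il7r, Tnfsf11, Il12rb2 and Stat4 lie above 1 in CD4 T cells and Ccl4, Ccl3, Gzmb, Stmn1 and Mki67 below. Ccl4, Ccl3, Hsp90aa1 and Hspd1 lie below 1 in both classes.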

How the data were processed

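Unsorted cells of 1 tumor library labelled FLOX and 1 labelled MCT1-KO were sequenced with a microwell 3' kit per the labels, while the methods name droplet kits. The authors trimmed reads with Fastp and made the deposited raw UMI counts with SeekOneTools, and the submitters' processing notes name Seurat 4.0.0. The methods and notes name the human build GRCh38, whereas the files list 32285 mouse gene identifiers, which leaves the build used unknown, so no coordinates are given. Cells, lists and tests were chosen with earlier results of these data known.

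For each class, UMIs were summed within a library, using scipy 1.17.1, numpy 2.4.6 and pandas 2.3.3 under python 3.11.15. Figures were drawn in matplotlib 3.10.9. CPM carry exact Poisson intervals, ratios conditional exact intervals and shares Clopper-Pearson intervals, all at 95%. Genes with at least 50 UMIs over the classes and libraries compared were ranked, with a floor of 3 UMIs, and called at 2-fold. A gene high in 1 class only passes that minimum through that class. Named genes were the members of fixed lists and the 10 leading genes in each direction. Other genes named were chosen after their values were seen. Results on a few genes are not reported here. Doublets were not removed, and 7 and 9 CD4 T cells held over 2 times their library's class median of UMIs. The calculation of ratios, intervals and calls was checked on simulated counts with known ratios. No replicate test was possible. Alternatives varied the cell rule, depth, gene minimum, fold, totals and weighting. Another 3 were added after the data were seen: no cells above 8000 UMIs, at least 2 UMIs of Cd4, Foxp3 and Cd40lg, and no CD4 T cells with a Nkg7 UMI.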

Additional observations from a re-analysis of the deposited data

Results flagged for a closer look

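The CD4 over CD8 ratio of 22 of 232 named ranked genes (9.48%) lay on opposite sides of 1 in the 2 libraries, with both counting intervals clear of 1, and the values of 21 of them follow. The difference between libraries was not tested, since each genotype has 1 library. The same held for 72 of all 5250 ranked genes (1.37%), and the named genes were partly chosen for their values.

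The following proliferation genes had ratios above 1 in FLOX and below 1 in MCT1-KO. The ratios in FLOX and MCT1-KO were 2.63 and 0.521 for Mki67, 1.75 and 0.162 for Birc5, 2.42 and 0.509 for Stmn1, and 1.58 and 0.689 for Hmgb2. They were 3.18 and 0.177 for the histone gene Hist1h2ae and 2.24 and 0.255 for the centromere gene Cenpa. Thinned to 1000 UMIs, the share of cells with Mki67 or Top2a was 10.9% in CD4 and 8.50% in CD8 T cells of FLOX and 9.41% and 11.9% in MCT1-KO, and the summed cell cycle level of the median cell was 1068 and 975 CPM in FLOX and 901.7 and 899.7 CPM in MCT1-KO. The chemokines Ccl3 (1.53 and 0.516) and Ccl4 (1.18 and 0.435) and the glycolytic enzyme Gapdh (1.41 and 0.831) had the same order.

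Other genes, several of activation and type 1 responses, had the opposite order. The ratios were 0.354 and 1.90 for Cd69, 0.582 and 1.43 for Cd28, 0.735 and 1.60 for Ifng, 0.443 and 1.54 for Il12rb2, and 0.594 and 1.32 for Stat4. Among immediate-early genes they were 0.744 and 1.40 for Fos, 0.753 and 1.504 for Junb, 0.736 and 1.29 for Jund, 0.286 and 1.64 for Egr1, and 0.517 and 1.20 for Btg2. Tmem176b (0.633 and 1.81) and the acinar gene Ctrb1 (0.342 and 1.23), a transcript of other cells, also had this order. The type 17 list, which holds Tmem176b, stood at 1824 and 1216 CPM in near-empty barcodes, against 226 and 244 CPM in CD4 T cells.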

How the results depend on the processing

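No paired analysis was possible because each genotype has 1 library. Of the recomputed headline values, 79 stayed near the reported one and 49 moved. Of the recomputed values of single genes, 632 stayed near the reported one, 88 moved and 8 reversed. The cause was not tested for any of them.

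The CD4 share was 25.3% in MCT1-KO with a Cd4 UMI alone, 24.5% in FLOX with 0 UMIs of other cells' genes (12 CD4 T cells), 13.6% in FLOX after thinning, and 19.7% in MCT1-KO with at least 2 UMIs of the CD4 genes. Without CD4 T cells holding Nkg7, and with every CD8 T cell kept, it was 5.99% and 15.7%. MCT1-KO stayed above FLOX under each alternative run. The Foxp3 or Il2ra share was 8.33% in FLOX with 0 UMIs of other cells' genes, 9.09% and 7.06% after thinning, and 43.8% and 32.4% without Nkg7 cells.

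Counts of genes higher and lower in CD4 than CD8 T cells were 22 and 11 with 0 UMIs of other cells' genes, 68 and 55 with equal weight per cell, 21 and 19 at 100 UMIs, 11 and 11 at a fold of 3, and 29 and 19 with at least 2 UMIs. The higher count was 119 at 20 UMIs and 143 without Nkg7 cells. Counts higher and lower in Foxp3 or Il2ra cells were 13 and 9 with a Cd4 UMI alone, 12 and 9 without cycling cells, 10 and 7 at 100 UMIs, 2 and 6 at a fold of 3, and 10 and 8 without Nkg7 cells. The higher count was 94 at 20 UMIs and 8 with at least 2 UMIs, and the lower count 1 with 0 UMIs of other cells' genes. Counts higher in MCT1-KO and in FLOX were 31 and 14 with 0 UMIs of other cells' genes, 28 and 24 without cycling cells, 17 and 15 at 100 UMIs, 169 and 261 at 20 UMIs, 18 and 18 at a fold of 3, and 10 and 16 without Nkg7 cells. The MCT1-KO count was 35 without cells above 8000 UMIs.

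Reversed log2 ratios in FLOX with 0 UMIs of other cells' genes were 1.59 for Gzma and -0.67 for Ctla4 over CD8, and 0.83 for Themis and 1.49 for Cxcr6 in Foxp3 or Il2ra over other CD4 T cells, where 1 cell made up the first group. Without Nkg7 cells, that ratio was 2.28 for Ccl5 in FLOX and 0.08 for Cxcr6 in MCT1-KO, and MCT1-KO over FLOX was 0.19 for Ccl3 and 0.19 for Mki67. The Foxp3 or Il2ra groups hold 11 and 19 cells, and genes under 50 UMIs could not be ranked.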
